A study of Homo sapiens with 40 samples.

Results

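The genes described here are 53 protein-coding genes of the G2 phase and mitosis, taken by name from a list and found once each among the 62754 genes of the count tables. They comprise 8 genes of cyclins, CDK1 and its activators, 4 of mitotic kinases and partners, 4 of the chromosomal passenger complex, 8 of the spindle checkpoint and anaphase, 9 of the kinetochore and centromere, 9 of motors and spindle, 4 of cytokinesis, 4 of chromosome structure and proliferation, and 3 regulators. The study sequenced RNA of human T-cell acute lymphoblastic leukaemia (T-ALL) lines to ask what the RNA-binding protein QKI does there. Jurkat cells received a QKI siRNA or a non-targeting control siRNA (NTC) by electroporation, with total RNA sequenced. Libraries labelled HPB-ALL came from cells transduced by spinoculation with virus carrying a QKI shRNA or a non-targeting shRNA, and 6 untreated lines (KARPAS-45, TALL-1, LOUCY, DND-41, ALL-SIL and HPB-ALL) were sequenced too, both from polyadenylated RNA. Each of these 10 groups has 4 libraries, 40 in all. HPB-ALL and KARPAS-45 were grown in 20% serum and the other lines in 10%. The knockdowns are labelled as biological replicates; for the untreated lines the labels name no separate cultures, and p-values there measure the spread between these libraries.

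Cells prepare for division by accumulating cyclins A and B, which bind CDK1, the kinase that drives entry into mitosis. Kinetochores then attach chromosomes to spindle microtubules, and the spindle checkpoint holds back the anaphase-promoting complex until every chromosome is attached. Transcripts of these genes rise together late in the cell cycle through the MuvB complex, B-MYB and FOXM1. Their promoters often hold CHR elements (cell cycle genes homology regions) and CCAAT boxes. In bulk RNA these transcripts are widely read as a mark of dividing cells. In such samples fewer cells of a cell cycle stage and less RNA per cell cannot be told apart.

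Promoters show what the genes share in sequence. RefSeq promoters (GRCh38.p14, 250 bases before to 50 after the start) were matched for 43 of the 53 genes. The genes not matched were AURKA, TPX2, BIRC5, BUB3, TTK, UBE2C, KNL1, RACGAP1, CDCA2 and FOXM1. A CHR element, TTTGAA or TTTAAA on either strand, lay in 35 of the 43 (81.4%) and in 24.3% of all 27303 promoters of the table. CCAAT on either strand lay in 34 (79.1%) against 35.7% of all, and both motifs in 29 (67.4%) against 9.49%. An E2F form (TTTCCCGC, TTTCGCGC, TTTGCCGC or TTTGGCGC, either strand) was in 4 (9.3%) against 3.33%. A match is a run of letters, not a shown binding site. A single RefSeq start per gene was searched, so matches at other starts of a gene are not counted. For CDC25C that start lies at the outer end of its gene model. The stretches below lie just before the start and outside annotated exons, and capitals mark the CHR and CCAAT matches, as spelled above or as their reverse complements (so that ATTGG is CCAAT on the other strand), with adjoining matches joined. They are the genes on which later results turn, with the motifs near the start and without: the spindle motor KIF11 (chr10:92592980-92593129, plus strand), the centromere factor HJURP (chr2:233854567-233854685, minus), CDC20, an activator of the anaphase-promoting complex (chr1:43358831-43358954, plus), CDK1 (chr10:60778181-60778330, plus), MKI67, the Ki-67 proliferation antigen (chr10:128126424-128126573, minus), the CDK-binding protein CKS2 (chr9:89311045-89311194, plus), the kinetochore protein CENPF (chr1:214603045-214603194, plus) and the phosphatase CDC25C (chr5:138338356-138338505, minus), which has no match in its stretch.
KIF11: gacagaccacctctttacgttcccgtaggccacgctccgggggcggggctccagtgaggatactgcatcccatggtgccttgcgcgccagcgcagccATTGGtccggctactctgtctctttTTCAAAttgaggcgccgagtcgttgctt
HJURP: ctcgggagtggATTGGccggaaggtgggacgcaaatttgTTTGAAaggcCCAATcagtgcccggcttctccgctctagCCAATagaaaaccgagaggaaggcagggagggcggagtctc
CDC20: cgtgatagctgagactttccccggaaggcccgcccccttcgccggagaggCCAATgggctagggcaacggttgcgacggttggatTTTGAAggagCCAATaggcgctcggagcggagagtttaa
CDK1: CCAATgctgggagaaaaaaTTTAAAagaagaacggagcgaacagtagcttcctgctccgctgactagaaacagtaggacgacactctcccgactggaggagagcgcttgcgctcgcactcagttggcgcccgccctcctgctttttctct
MKI67: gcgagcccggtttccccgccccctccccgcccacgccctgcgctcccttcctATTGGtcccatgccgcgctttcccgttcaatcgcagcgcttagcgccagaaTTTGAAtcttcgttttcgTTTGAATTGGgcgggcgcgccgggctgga
CKS2: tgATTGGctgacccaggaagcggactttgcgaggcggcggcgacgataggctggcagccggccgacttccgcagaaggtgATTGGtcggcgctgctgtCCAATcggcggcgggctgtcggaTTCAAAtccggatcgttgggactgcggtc
CENPF: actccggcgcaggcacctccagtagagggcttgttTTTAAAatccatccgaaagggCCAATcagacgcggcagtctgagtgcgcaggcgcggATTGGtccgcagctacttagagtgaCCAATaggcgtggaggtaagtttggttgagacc
CDC25C: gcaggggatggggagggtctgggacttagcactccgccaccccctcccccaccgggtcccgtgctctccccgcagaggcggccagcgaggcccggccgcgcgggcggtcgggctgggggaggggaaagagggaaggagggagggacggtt

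Matches were also counted by the knockdown result given below. A CHR match was held by 17 of the 22 matched genes that rose with QKI shRNA, by 3 of 3 that fell and by 14 of 17 that did not pass the test. CCAAT was in 14, 3 and 16 of them. These are counts, with no test of a difference.

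Depth, in M (1000000) gene counts per library, ranged from 68.4 to 134.2 in Jurkat, from 81.0 to 134.9 in the libraries labelled HPB-ALL and from 44.1 to 84.0 in the untreated lines. QKI in Jurkat was 148, 176, 137 and 133 counts per 1000000 (CPM) in the controls and 24.9, 17.5, 18.2 and 25.3 CPM with the siRNA. It fell by 2.79 on the log2 scale (edgeR, SE 0.17, adjusted p = 0.000129). With the shRNA it went from 105, 103, 101 and 107 CPM to 54.6, 54.9, 55.9 and 57.7 CPM, and fell by 0.90 on that scale (edgeR, SE 0.03, adjusted p = 1.1e-07). The knockdown libraries labelled HPB-ALL did not carry the markers of the untreated HPB-ALL line: 1 of 12 T-cell markers (CD4, also made by monocytes) was above 1 CPM against 12 of 12, and CD3E was 0.00432 and 0.00562 CPM in the 2 arms against 925 ± 168. TLX3 had no count in either arm, which allows up to 0.037 CPM per library, against 225 ± 58.7. Of 12 myeloid markers, 8 (control) and 7 (QKI shRNA) were above 1 CPM, with a summed level of 2979.6 to 3575 CPM against 15.1 to 34.7, and ELANE stood at 1649.9 and 1714 CPM. They are therefore called the libraries labelled HPB-ALL, and the untreated HPB-ALL line is named as such. In the untreated lines, library 4 of LOUCY and library 4 of TALL-1 stood apart on these genes, and results that rest on them are given with and without both.

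In the libraries labelled HPB-ALL, 27 of the 52 measured genes were higher with QKI shRNA, 3 were lower and 22 did not pass the test (edgeR, adjusted p below 0.05 over all 17974 genes). Over all genes, 12.8% were called higher and 10.4% lower. The rises were small: fold changes of the 27 ran from 1.09 to 1.5 with a median of 1.19. The median log2 fold change was 0.15, against -0.01 over all genes tested, and 43 of 52 were above 0. All 4 QKI-shRNA libraries lay above all 4 controls in 25 genes and below them in 3, while 24 overlapped; over all genes these shares were 14.5% and 11.7%. The summed level of the 53 genes was 4559 to 4764 CPM in the controls and 5045 to 5218 CPM with QKI shRNA, with no overlap. NUSAP1, a spindle-associated protein, was too low to test.

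Among the cyclins, CDK1 and its activators, 5 rose, 1 fell and 2 did not pass. CDC25B, a phosphatase that activates CDK1, was 99.0, 108, 113 and 105 CPM in the controls and 140.2, 126, 138 and 130.1 CPM with QKI shRNA. It was higher in every knockdown library, by 0.33 on the log2 scale (SE 0.05; edgeR adjusted p = 0.000668). CDC25C rose by 0.22, CCNB2 (cyclin B2) by 0.19, CDK1 by 0.15 and CCNA2 (cyclin A2) by 0.14. CCNB1, cyclin B1, was 106, 116, 105 and 109 CPM in the controls against 111, 115, 109 and 108 CPM, and these overlapped. Its log2 difference of 0.02 had a 95% interval of -0.06 to 0.10. CKS1B, a small CDK-binding protein, fell from 47.2, 46.4, 45.8 and 50.8 CPM to 42.0, 43.1, 43.8 and 38.8 CPM (log2 -0.18, SE 0.05; edgeR adjusted p = 0.0178). Its relative CKS2 was at 27.6 to 32.9 CPM in the controls and at 30.1, 29.5, 30.5 and 18.1 CPM with QKI shRNA, so that only library 4 was low.

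Of the mitotic kinases and partners, only TPX2, the spindle assembly factor that activates Aurora A, passed the test. TPX2 was 574, 575, 527 and 558 CPM in the controls and 665, 650.4, 671 and 683 CPM with QKI shRNA. The groups did not overlap (log2 0.26, SE 0.04; edgeR adjusted p = 0.00116). PLK1, polo-like kinase 1, was 132, 140.5, 135 and 142 CPM against 138, 136, 140.4 and 137 CPM, a log2 difference of 0.01 with a 95% interval of -0.06 to 0.08. AURKA (Aurora A) and NEK2, a centrosome kinase, differed by 0.07 and 0.08 without passing. None of the 4 chromosomal passenger genes passed: the kinase AURKB was at -0.01, the scaffold INCENP at 0.09, CDCA8 (borealin) at -0.01 and BIRC5 (survivin) at 0.21 with an edgeR adjusted p of 0.0841. BIRC5 did pass with no filter on low counts (0.22, edgeR adjusted p = 0.00471) and without control library 2 (0.28, edgeR adjusted p = 0.0253). A fall to 74.2 CPM in QKI-shRNA library 2 set CDCA8 apart from its other 3 libraries, at 97.0 to 99.6 CPM.

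Of the 8 spindle checkpoint and anaphase genes, 3 rose, 1 fell and 4 did not pass. CDC20, whose promoter stretch is shown above, was 121, 127, 124 and 129.9 CPM in the controls and 141, 139, 143 and 139 CPM with QKI shRNA (log2 0.16, SE 0.03; edgeR adjusted p = 0.00561). BUB1B, a checkpoint protein that restrains CDC20, rose by 0.16 and PTTG1 (securin) by 0.13. MAD2L1, another checkpoint protein, fell from 63.2, 64.2, 58.2 and 61.5 CPM to 55.5, 56.5, 57.6 and 55.6 CPM (log2 -0.13, SE 0.04; edgeR adjusted p = 0.0246). Its groups were separated by a gap of under 1 CPM. The checkpoint kinases BUB1 (0.02) and TTK (-0.03) and the checkpoint protein BUB3 (0.03) lay near 0. UBE2C, a ubiquitin-conjugating enzyme of the anaphase-promoting complex, was higher in all 4 knockdown libraries (23.6 to 27.0 against 27.2 to 28.8 CPM) and had an edgeR adjusted p of 0.0898.

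Kinetochore and centromere genes rose in 6 of 9, and none fell. NDC80, which binds microtubules at the kinetochore, was 32.7, 31.4, 30.6 and 33.9 CPM in the controls and 44.7, 43.3, 45.4 and 46.5 CPM with QKI shRNA. It rose by 0.49 on the log2 scale (SE 0.04; edgeR adjusted p = 2.15e-05). HJURP, the chaperone that deposits the centromeric histone CENPA, went from 29.8, 30.1, 28.4 and 29 CPM to 41.1, 40.7, 41.8 and 40.8 CPM (SD 0.768 and 0.489 CPM; log2 0.49, SE 0.04; edgeR adjusted p = 6.01e-06). The partners of NDC80 in its complex rose less: SPC24 by 0.26, NUF2 by 0.17 and SPC25 by 0.16. The scaffold KNL1 rose by 0.29. CENPA (0.17), the kinetochore motor CENPE (0.08) and CENPF (0.09) did not pass, although CENPA was called with no filter on low counts (0.18) and without QKI-shRNA library 2 (0.22).

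Motors and spindle genes were mixed, with 3 higher, 1 lower and 4 not passing of 8 measured. KIF11, the motor that separates spindle poles, was 70.3, 77.1, 71.3 and 76.7 CPM in the controls and 95.3, 92.3, 93.2 and 97.0 CPM with QKI shRNA (log2 0.36, SE 0.04; edgeR adjusted p = 0.00011). KIF23, a motor of the central spindle, rose by 0.38 and KIF2C, which removes tubulin from microtubule ends, by 0.13. HMMR, a spindle-associated protein, fell from 71.1, 72.9, 69.8 and 73.9 CPM to 66.6, 64.7, 63.0 and 66.2 CPM (log2 -0.14, SE 0.03; edgeR adjusted p = 0.0114). KIF20A (0.12), KIF20B (-0.10), KIF18A (0.09) and DLGAP5 (0.07), 3 kinesin motors and a spindle protein, did not pass.

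Cytokinesis genes rose in 3 of 4. ANLN, anillin of the contractile ring, was 117, 113, 112 and 109 CPM in the controls and 145, 142, 139.9 and 148 CPM with QKI shRNA (log2 0.35, SE 0.04; edgeR adjusted p = 6.62e-05). RACGAP1, a partner of KIF23 at the central spindle, rose by 0.29, and ECT2, which activates RhoA at the cleavage furrow, by 0.22. PRC1 was listed at 0.063 to 0.221 CPM and is not read here. Of the chromosome structure and proliferation genes, CDCA5 (sororin), which holds sister chromatids together, had the largest fold change of the 52. It went from 35.1, 42.1, 39.5 and 42.1 CPM to 61.6, 61.0, 60.2 and 54.5 CPM (log2 0.58, SE 0.06; edgeR adjusted p = 6.77e-05), so that even the lowest knockdown library was above every control. CDCA2, a phosphatase subunit on chromosomes, rose by 0.36 and MKI67 by 0.17, while the topoisomerase TOP2A stood at 595 ± 16.9 and 624 ± 13.7 CPM and did not pass. All 3 regulators rose. FOXM1, the transcription factor of late cell cycle genes, went from 60.0, 57.5, 54.9 and 56.9 CPM to 76.4, 70.4, 74.3 and 74.7 CPM (log2 0.37, SE 0.04; edgeR adjusted p = 8.05e-05). CDCA3, a mitotic entry factor, went from 18.6, 17.8, 18.9 and 19.0 CPM to 26.1, 25.4, 25.9 and 24.9 CPM (log2 0.46), and GTSE1, a regulator of p53 and microtubules, rose by 0.25.

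**Figure D1:**
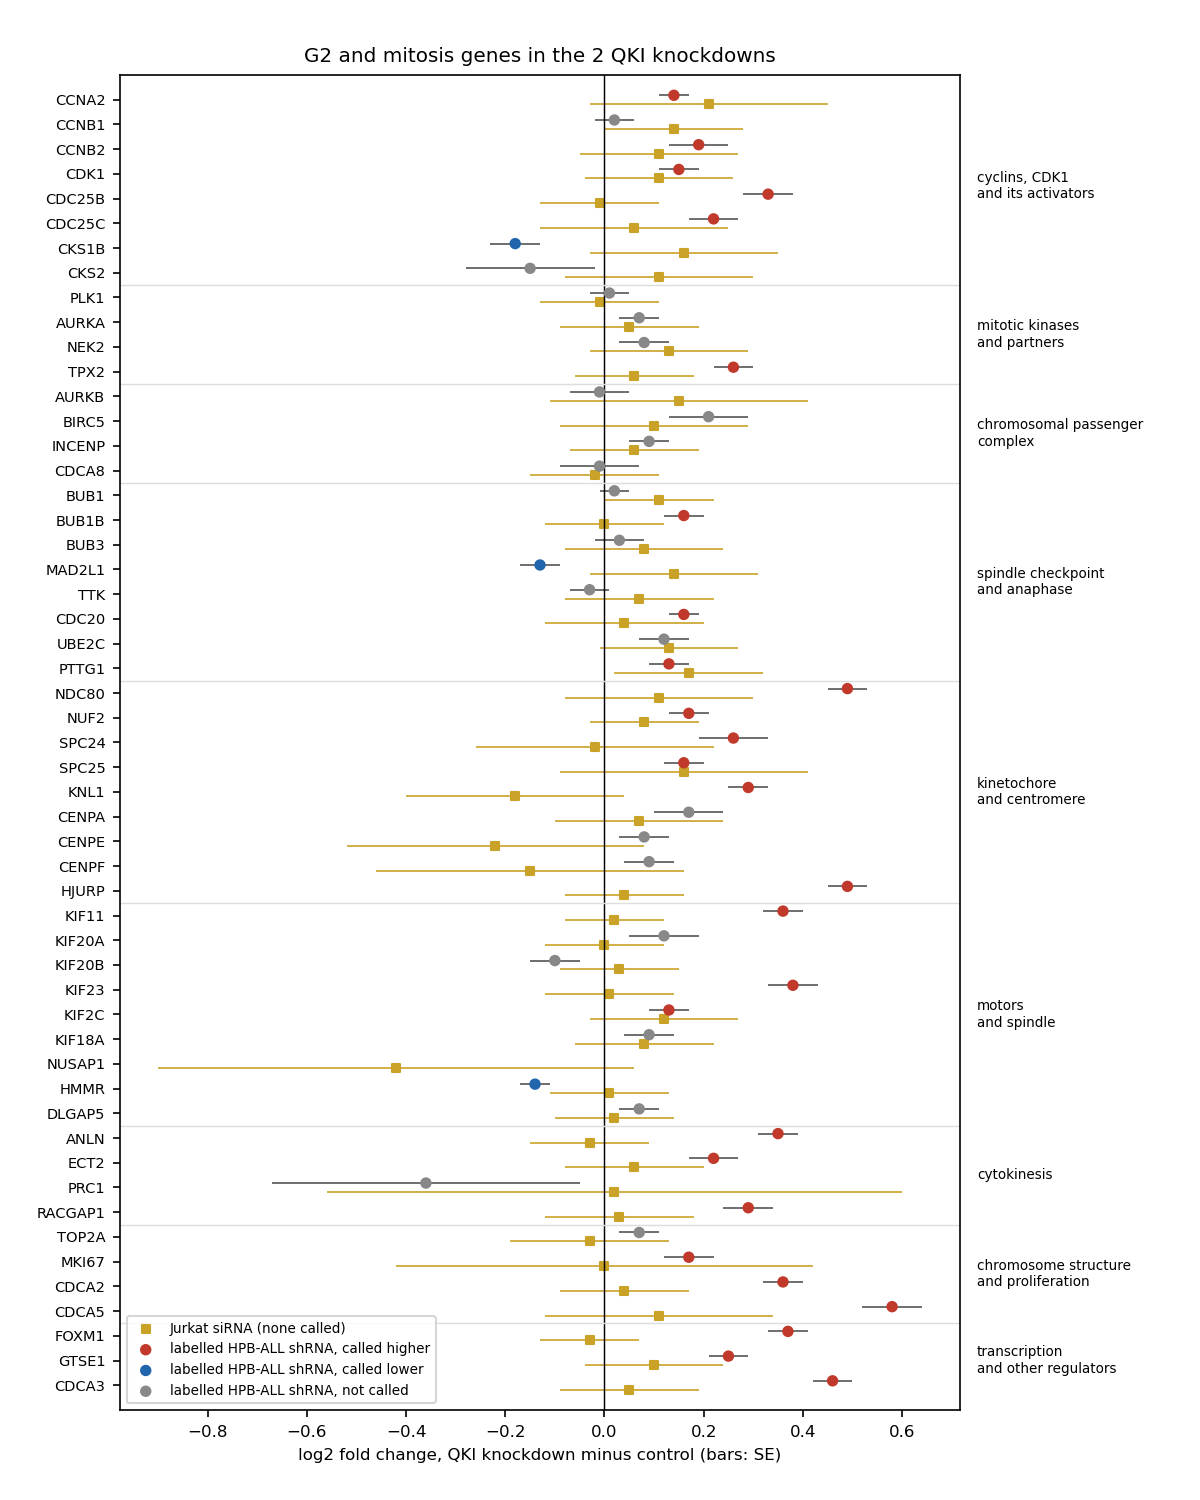
Log2 fold change (QKI knockdown minus control, x axis; bars are SE) of each gene, grouped by role, in Jurkat (squares) and in the libraries labelled HPB-ALL (circles; red called higher, blue lower, grey not called; 4 libraries per arm). Circles for CDCA5 (0.58), NDC80 and HJURP (0.49) lie farthest to the right, whereas no square was called. The squares have wider bars, from a fit without pairs.

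Genes of the same pathway outside the 53 also rose more often than they fell. Of 139 measured in 7 lists, 61 were higher and 8 lower, with a median log2 fold change of 0.11 and 115 above 0. Over all genes tested, 12.8% were called higher and 10.4% lower. Mitotic entry and exit had 15 higher and 1 lower of 19, with PKMYT1, the kinase that inhibits CDK1, at 0.54 and the cytokinesis kinase CIT at 0.31. Other kinetochore and centromere genes had 15 higher and 3 lower of 30 (SKA3 0.45, CENPO 0.37), and other motors and spindle genes 11 higher and 0 lower of 23 (KIF18B 0.35, KIFC1 0.30). Condensin and cohesin had 6 higher and 1 lower of 19, among them SGO1, the protector of centromeric cohesion, at 0.35 and separase (ESPL1) at 0.25. The anaphase-promoting complex had 3 higher and 0 lower of 17, close to the share of all genes called higher. Its inhibitor FBXO5 was at 0.32 and its activator FZR1 at 0.19. Cell cycle inhibitors and p53 genes had 8 higher and 0 lower of 12 (CDKN3 0.45, CDKN2D 0.28). The list of MuvB, MYB, NF-Y, E2F and pocket proteins had 3 higher and 3 lower of 19, also close to the shares over all genes. In it, E2F2 was at 0.61 and the pocket protein RBL1 at -0.25. DNA replication and S phase genes had 17 higher and 2 lower of 45, with a median of 0.07.

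Composition moved with this comparison too. Of 11 myeloid markers measured, 6 were lower with QKI shRNA and none higher, and their summed level went from between 3415 and 3575 CPM to between 2979.6 and 3112 CPM. Of 5 B-cell markers, 3 were lower, and of 5 T-cell markers, 1 was lower. Over all genes 12.8% were called higher and 10.4% lower, so the single T-cell marker says little. Mitochondrially encoded genes were 1.34 to 1.76% of counts in the controls and 1.20 to 1.35% with QKI shRNA, with 4 of 12 lower. The part of these shifts in the rise of the mitosis genes was not tested. Of the 30 calls, those of CCNB2, CDK1, PTTG1, MAD2L1, KIF2C and MKI67 were lost when single libraries were left out. Without QKI-shRNA library 4, NEK2 (0.13) and KIF20B (-0.14) were called as well.

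In Jurkat, where the knockdown of QKI was deeper, none of the 53 genes passed the test. None had an unadjusted p under 0.05 either; the lowest was 0.301, and edgeR's lowest adjusted p was 1. Over all 21296 genes, 0% were called higher and 0.0047% lower (1 gene, QKI). With the replicate numbers paired in the model, none passed again (lowest p 0.0747, edgeR adjusted p 0.752), against 0.0047% higher and 0.0376% lower of all genes. DESeq2 also called none. No gene had 4 knockdown libraries clear of 4 controls, against 0.39% of all genes above and 0.676% below. The median log2 fold change was 0.06, against 0.00 over all genes, with 40 of 53 above 0. In the fit without pairs, standard errors ran from 0.10 to 0.58 with a median of 0.15. There, 42 of the 53 genes had a 95% interval within 0.5 of 0 on the log2 scale. These intervals take a normal multiple of the SE, so they are narrower than the F test would give.

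The 8 Jurkat genes with the smallest p show that spread, with p and intervals from the fit without pairs. CCNB1 was 206, 226, 278 and 259.6 CPM in the controls and 238, 287, 237 and 305 CPM with QKI siRNA (log2 0.14, 95% interval -0.13 to 0.41). CCNA2 was 166, 267, 182 and 184 CPM against 185, 356, 161 and 221 CPM (log2 0.21, interval -0.27 to 0.69), with number 2 the highest library in both arms. PTTG1 was 45, 57.6, 55.7 and 53.4 CPM against 51.9, 76.0, 49.3 and 60.3 CPM, a log2 difference of 0.17. The others were CKS1B at 0.16, UBE2C at 0.13, BUB1 at 0.11, KNL1 at -0.18 and NUSAP1 at -0.42, the last at about 1 CPM or less. In each of these genes the 2 arms overlapped.

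Libraries of the same number moved together in Jurkat. The correlation of same-numbered libraries' deviations from their group means over all genes was 0.574 to 0.741, although the labels do not say what a number shares. Libraries of different numbers could be as close: the highest correlation was 0.573 between numbers 3 and 4, beside 0.574 within number 4, and 0.416 between numbers 1 and 2. Within numbers 1, 2 and 4 the median difference of the 53 genes, QKI siRNA minus control on log2(CPM + 0.5), was 0.08, 0.15 and 0.16, with 45, 39 and 49 genes above 0. Within number 3 it was -0.18, with 4 of 53 above 0. About as many of all genes lay above 0 as below in each number (49.4, 49.1, 50.4 and 50.1% above for numbers 1 to 4). Number 3 thus went against the other numbers, and 33 of the 53 genes were above 0 in numbers 1, 2 and 4 and below 0 in number 3.

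**Figure D2:**
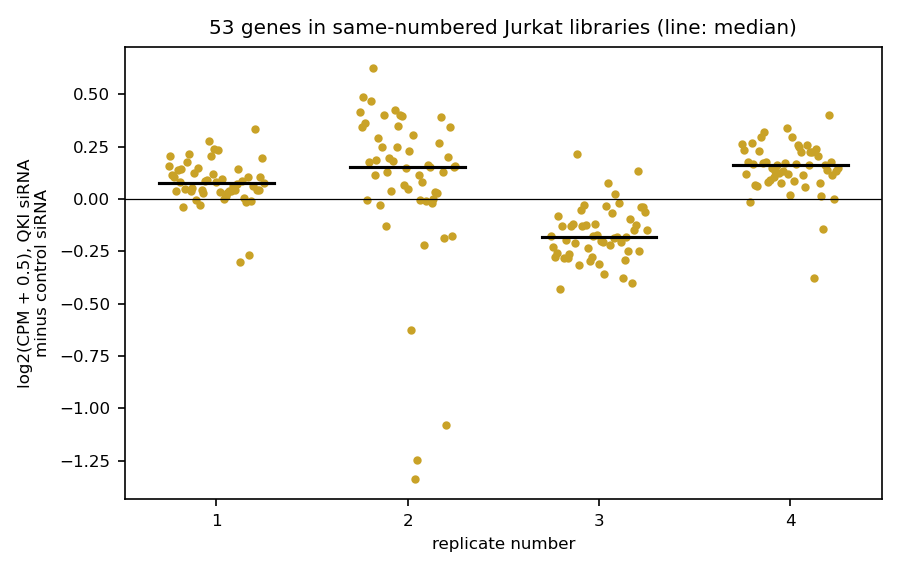
Each point is 1 of the 53 genes and shows the log2(CPM + 0.5) difference, QKI siRNA minus control siRNA (y axis), between the 2 Jurkat libraries with the same replicate number (x axis); black lines are medians. The medians are 0.08, 0.15, -0.18 and 0.16, and 4 points of number 2 lie below -0.5.

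Those 4 points are KNL1 (-0.62), CENPE (-1.34), CENPF (-1.25) and MKI67 (-1.08), the genes of the 53 with the longest merged exons (10.2, 9.44, 11.7 and 12.8 kb). MKI67 was 312, 248, 142 and 109 CPM in the controls and 394, 117, 156 and 144 CPM with QKI siRNA. Its within-group SD on the log2 scale was 0.74, that of CENPF 0.57, of CENPE 0.54 and of KNL1 0.37, against a median of 0.22 over the 53 and 0.24 over all genes. Over all 53 genes length and spread were not ordered alike (Spearman rho -0.15, a description over genes of the same libraries). In the libraries labelled HPB-ALL the median within-group SD was 0.06. Histone genes, mostly without a poly(A) tail, were 1.81 to 4.30% of Jurkat control counts and 2.43 to 5.75% with QKI siRNA. Number 2 held the highest share in both arms, and the other QKI-siRNA libraries stood at 2.43 to 2.78%. In number 3 the share went the other way, from 3.07% in the control to 2.43%. QKI-siRNA library 2 was also the shallowest in Jurkat, at 68.4 M. The part of RNA composition and depth in the spread was not tested.

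The difference between the knockdown effects was tested directly, since the experiments differ in cells, delivery and RNA type. In the fit without pairs, none of 52 genes passed the test (edgeR, adjusted over 15730 genes), against 0.0127% of all genes higher and 0.0127% lower. The smallest unadjusted edgeR p there was 0.000522, for FOXM1. Unadjusted p was under 0.05 for 8 genes, and DESeq2 called 2 higher (its share over all genes was not counted). With the replicate numbers as a block, 8 genes rose more in the libraries labelled HPB-ALL than in Jurkat and none less, against 1.25% and 1.81% of all genes. These were CDCA5 (a difference of 0.45 in log2 fold change), HJURP (0.43), CDCA3 (0.39), FOXM1 (0.37; edgeR adjusted p = 0.0213), ANLN (0.37), KIF23 (0.36), CDC25B (0.33) and KIF11 (0.32). Numbers pair libraries in Jurkat but not in the libraries labelled HPB-ALL, where same-numbered deviations correlated at -0.211 to 0.0417. The log2 fold change was above 0 in both experiments for 32 of the 52 genes. Singly, 40 were above 0 in Jurkat and 43 in the libraries labelled HPB-ALL. The share over all genes was not counted.

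**Figure D3:**
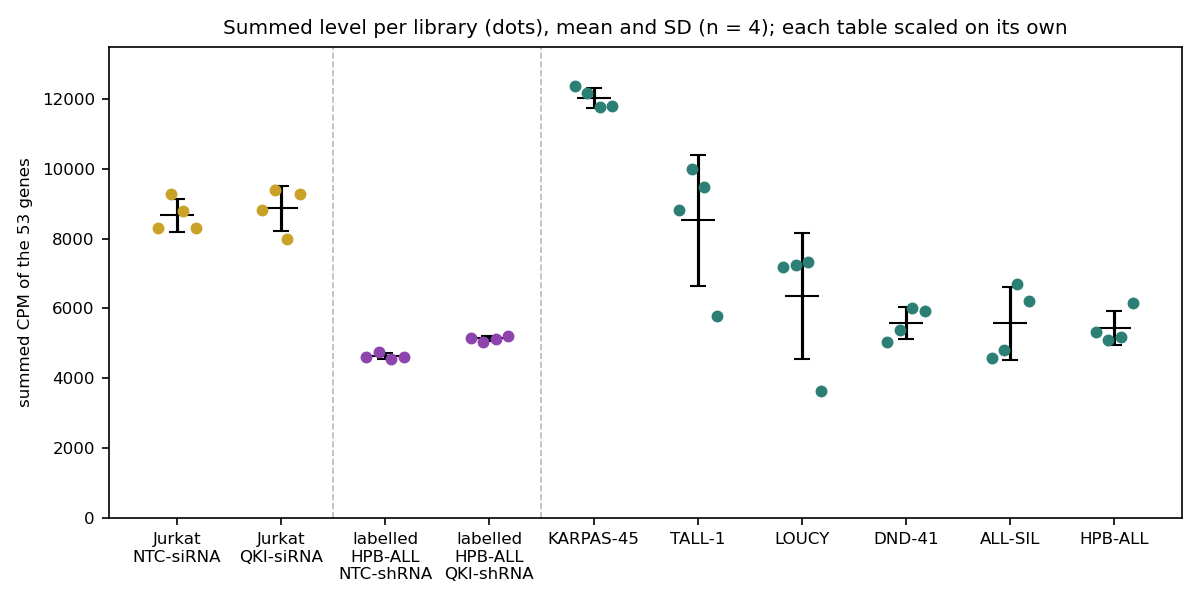
Summed CPM of the 53 genes (y axis) in each of the 40 libraries (dots), with the mean and SD of the 4 libraries of each group; dashed lines separate the 3 tables, each scaled on its own. KARPAS-45 is highest at 12032 ± 292 CPM, and library 4 is the low dot of TALL-1 (5785 CPM) and of LOUCY (3645 CPM).

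Among the untreated lines the mitosis genes were most abundant in KARPAS-45. Their summed level there was 12372, 12179, 11770.3 and 11807 CPM, a mean of 12032 ± 292 (SD, n = 4), and no library of another line reached it. TALL-1 followed at 8834, 10002, 9481 and 5785 CPM, and LOUCY at 7195, 7242, 7341 and 3645 CPM, each with a low library 4. DND-41 (5590.3 ± 455), ALL-SIL (5574 ± 1051) and HPB-ALL (5445 ± 489) were lowest and overlapped. QKI itself was highest in TALL-1 (162 ± 4.24 CPM), lay between 88.0 ± 5.54 and 137 ± 19.7 CPM in DND-41, ALL-SIL and HPB-ALL, was at 6.71 ± 0.776 CPM in KARPAS-45 and had no count in LOUCY, which allows up to 0.0595 CPM per library. On separate scales, Jurkat stood at 8670.3 ± 464 CPM in the controls and at 8870 ± 644 CPM with QKI siRNA.

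An F test over the 6 lines called 50 of 53 genes, against 98% of the genes tested, so a call there says little about this list. The exceptions were CKS2, CENPF and CENPA (edgeR adjusted p 0.218, 0.181 and 0.0674), and without both low libraries all 53 passed. KARPAS-45 was the highest line for 41 genes, DND-41 and TALL-1 for 3 each and the other 3 lines for 2 each. The lowest line was ALL-SIL for 23 genes, HPB-ALL for 12, DND-41 for 7, KARPAS-45 for 6 and LOUCY for 5. The ratio of the highest to the lowest line mean ran from 1.5 (CENPF) through a median of 3.3 to 8.79 (HMMR).

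Against the mean of the other 5 lines, KARPAS-45 had 41 genes higher and 5 lower (edgeR), where 39% and 34.2% of all genes were called, with a median log2 difference of 1.05 against -0.07 over all genes. All 4 of its libraries were above the 20 others in 26 genes and below them in 1, against 16.4% and 12.3% of all genes. HMMR had the highest ratio of the highest to the lowest line mean (8.79). It was at 259.9 to 289.7 CPM in KARPAS-45, 49.9 to 138 in TALL-1 and 13.5 to 49.2 in LOUCY. In the lower lines it was at 37.3 to 50 CPM in DND-41, 27.6 to 37.7 in ALL-SIL and 39.0 to 55.3 in HPB-ALL. Its log2 difference was 2.51 (SE 0.19; edgeR adjusted p = 7.26e-12). TOP2A was 1554 ± 52.4 CPM in KARPAS-45, 737 ± 185 in TALL-1 and 229 ± 71.5 in HPB-ALL, its lowest line, and TTK was 204 ± 18.9 in KARPAS-45 and 32.6 ± 5.29 in ALL-SIL. DLGAP5 was 1.97 higher, BUB1 1.85 and KIF23 1.72 on the log2 scale.

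By role, KARPAS-45 had 4 of 4 kinases and partners, 4 of 4 chromosomal passenger genes and 4 of 4 chromosome structure genes higher. It had 8 of 9 motors and spindle genes and 7 of 8 checkpoint genes higher, each with 1 lower. Cyclins and activators were split, with 5 higher and 2 lower. CDC25B was the exception of widest range, at 181 ± 14.6 CPM in KARPAS-45 (log2 -0.89, SE 0.12; edgeR adjusted p = 4.11e-07) and 645 ± 28.4 CPM in ALL-SIL, whose 4 libraries at 610.2 to 679 CPM were above the 20 others. CKS1B (-0.70) and UBE2C (-0.90) were lower in KARPAS-45 too. NUSAP1 and PRC1 make up the other 2 lower calls, but both were under 1 CPM in every untreated line and are not read as levels. Kinetochore genes were higher in 5 of 9, and CKS2, SPC24, CENPA, CENPF, HJURP, FOXM1 and CDCA3 did not pass. Mitochondrially encoded genes made up 0.671 to 1.43% of KARPAS-45 counts and 3.78 to 9.49% in the other lines, and the part of this share in the comparison was not tested.

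Line by line, levels ordered differently for different genes. BIRC5 was 573 ± 39.2 CPM in KARPAS-45 and 146 ± 8.44 in DND-41, while its partner AURKB was 149 ± 14.6 and 147 ± 15.9 in the same lines. SPC25 ranged from 65.5 ± 3.25 CPM in KARPAS-45 to 12.0 ± 6.03 in ALL-SIL, and GTSE1 from 192 ± 13.4 to 48.6 ± 8.64 CPM in the same pair. TPX2 fell from 569.7 ± 35.4 CPM in KARPAS-45 to 98.4 ± 9.91 in HPB-ALL. FOXM1 did not follow the other genes, at 371 ± 111 CPM in LOUCY, 366 ± 49.3 in HPB-ALL, 269.9 ± 21.7 in DND-41, 230.3 ± 21.3 in KARPAS-45, 225 ± 24.1 in TALL-1 and 188 ± 51.3 in ALL-SIL. CDCA5 was 224 ± 14.7 CPM in KARPAS-45 and 221 ± 16 in HPB-ALL, lines at opposite ends of the summed level. CDC25C was 36.5 ± 1.65 CPM in KARPAS-45 and 8.25 ± 1.84 to 14.5 ± 4.26 elsewhere. Narrow ranges were seen for AURKA (63.4 ± 2.63 to 122 ± 8.52 CPM), BUB3 (186 ± 18.9 to 347 ± 37.1), ANLN (61.4 ± 14.1 to 137 ± 5.49) and CKS2 (73.2 ± 5.07 to 110.3 ± 42.5).

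**Figure D4:**
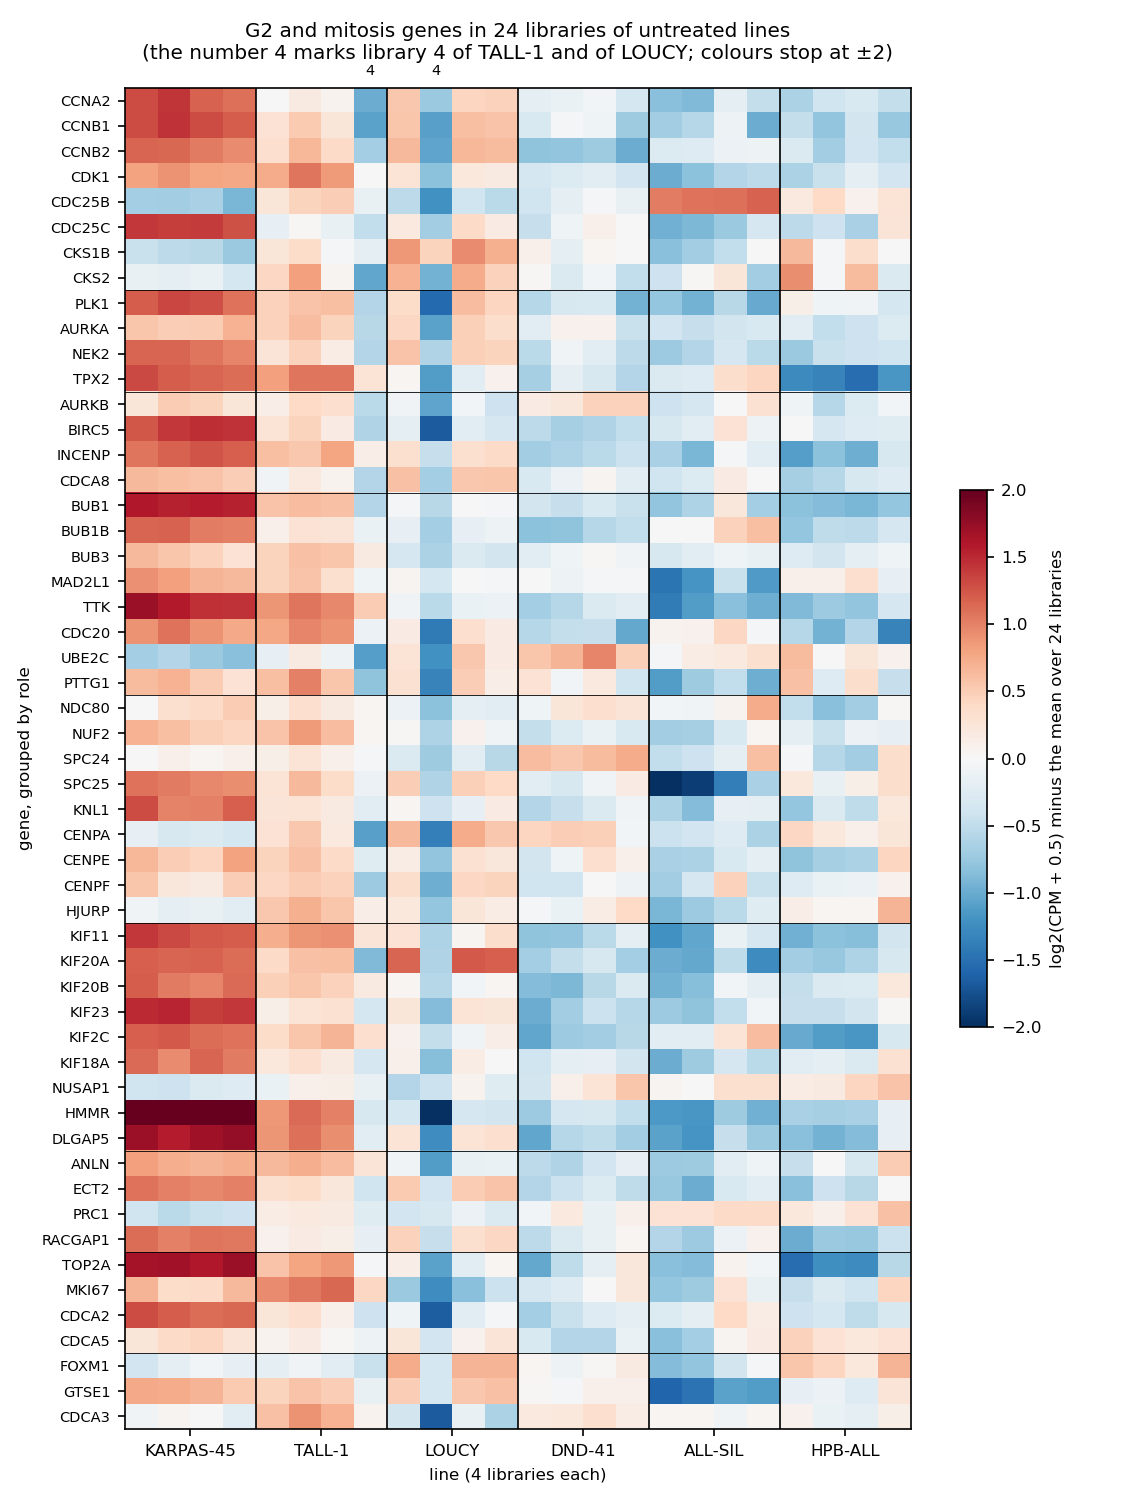
Each row is a gene, grouped by role, and each column a library of an untreated line (4 per line); the colour is log2(CPM + 0.5) minus the gene's mean over the 24 libraries. KARPAS-45 columns are red in most rows and blue for CDC25B, UBE2C and CKS1B, and the columns marked 4 in TALL-1 and LOUCY are bluer than their neighbours.

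For the other lines, TALL-1 had 21 genes higher and 0 lower against the mean of the other 5 (32.9% and 24.4% of all genes), with a median of 0.30. LOUCY had 6 higher and 14 lower (37.3% and 28.5%), median -0.01; the higher were CKS1B, CDCA8, KIF20A, ECT2, FOXM1 and GTSE1. DND-41 had 3 higher (AURKB, UBE2C and SPC24) and 25 lower (34.4% and 23.3%), median -0.36. HPB-ALL had 6 higher (CDC25B, CKS1B, CDCA5 and FOXM1, with NUSAP1 and PRC1 counted but not read as levels) and 26 lower (39.6% and 23.4%), median -0.38, where the median over all genes was 0.15. ALL-SIL had 3 higher (CDC25B and BUB1B, with PRC1 counted but not read as a level) and 33 lower (33.8% and 25.4%), median -0.52. These contrasts share libraries and are not independent of each other.

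Without both low libraries, LOUCY had 18 higher and 9 lower (36.4% and 27.9% of all genes) with a median of 0.16. TALL-1 had 33 higher and 0 lower (31.3% and 23.4%) with a median of 0.42. KARPAS-45 then had 42 higher and 9 lower (39.3% and 33.6%), median 0.96, and DND-41 4 and 34 (35.5% and 23.3%), median -0.42. HPB-ALL had 5 and 32 (40.6% and 23.3%), median -0.42, and ALL-SIL 3 and 38 (34.6% and 25.5%), median -0.58. The lines kept the order of their medians, with DND-41 and HPB-ALL equal.

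Neighbours in the order of the summed level were compared next. The same genes and libraries set that order, so a lean to the higher line is partly built in. These counts only describe where the order is resolved. KARPAS-45 was above TALL-1 in 27 genes and below in 6, where 36.3% and 35.9% of all genes were called. TALL-1 was above LOUCY in 25 and below in 2 (32.3% and 34.4%). LOUCY was above DND-41 in 17 and below in 10 (33.3% and 32.6%), and without both low libraries in 32 and 9 (33.1% and 32.9%). DND-41 was above ALL-SIL in 11 and below in 6 (27.2% and 24.8%), and ALL-SIL above HPB-ALL in 8 and below in 11 (28% and 34.4%). Without both low libraries these counts were 19 and 9 for DND-41 against ALL-SIL (28.2% and 25.5% of all genes). For ALL-SIL against HPB-ALL they were 13 and 18 (28.6% and 35.4%), close to the shares over all genes. Without LOUCY library 4 alone, DND-41 was above ALL-SIL in 17. DNA replication and S phase genes were compared by line against the mean of the other 5, not by neighbours. KARPAS-45 had 42 of 45 higher and 2 lower (39% and 34.2% of all genes), with a median of 1.21. TALL-1 had 14 higher and 9 lower (32.9% and 24.4%), close to the shares over all genes. LOUCY had 8 higher and 12 lower (37.3% and 28.5%), and DND-41 3 and 28 (34.4% and 23.3%). HPB-ALL had 5 and 29 (39.6% and 23.4%) and ALL-SIL 9 and 21 (33.8% and 25.4%).

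Library 4 of LOUCY and of TALL-1 were low in the mitosis genes without exception. No gene of the 53 was above its line's mean in either, and the median deviation on log2(CPM + 0.5) was -0.74 in LOUCY and -0.49 in TALL-1. PLK1 was 205, 181 and 174 CPM in the other LOUCY libraries and 45.4 CPM in library 4, and CCNB1 was 192, 188 and 187 against 59.8 CPM. KIF20A was 117, 115 and 113 against 32.7 CPM. In TALL-1, CCNB1 was 155, 183 and 151 CPM in libraries 1 to 3 and 60.2 CPM in library 4. DNA replication and S phase genes were not low in these libraries: their median deviations were 0.04 and 0.05, with 26 of 45 above the line mean in each. The 140 other pathway genes lay between, at -0.23 with 40 above and -0.16 with 34 above, and the median over all genes was 0. Over all genes, libraries numbered 4 in different lines deviated from their line means alike (median correlation 0.332 over 15 pairs of libraries, against -0.0387 for libraries of different numbers). The mitosis genes did not follow the number in the other lines: their median deviation in library 4 was 0.20 in HPB-ALL (40 of 53 above the line mean), 0.17 in ALL-SIL (42), 0.05 in DND-41 (32) and -0.07 in KARPAS-45 (16). The part of the shared number in the low mitosis genes was not tested. ALL-SIL libraries 1 and 2 were low in both kinds of gene, with 2 and 5 of 53 mitosis genes and 0 and 0 of 45 S phase genes above the mean.

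**Figure D5:**
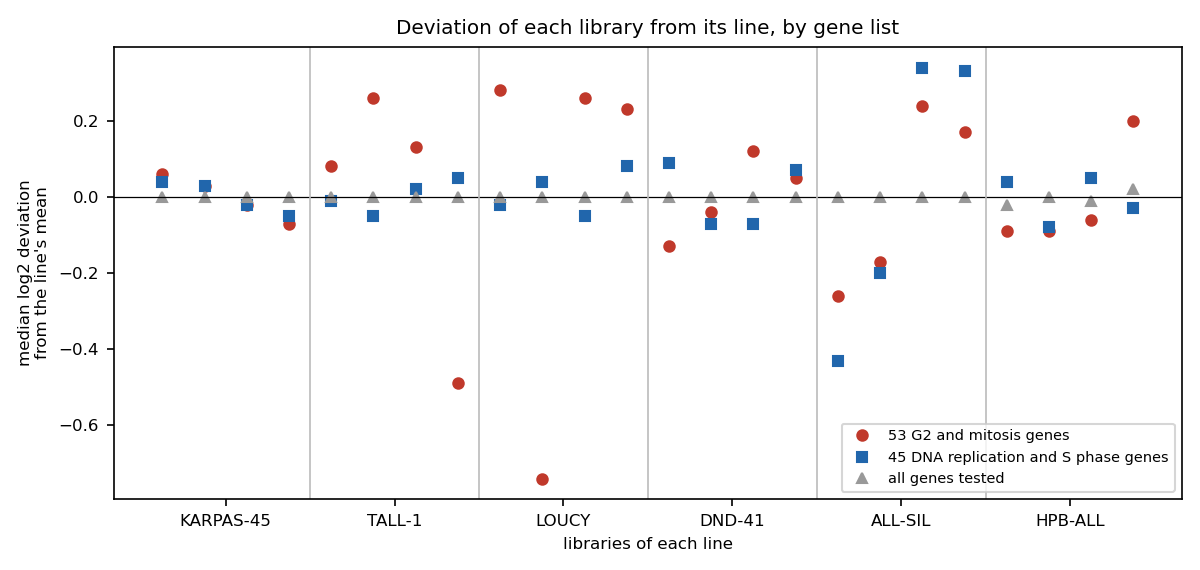
Median log2 deviation from the line's mean (y axis) in each of the 24 libraries of untreated lines (x axis) for the 53 mitosis genes (red circles), 45 DNA replication and S phase genes (blue squares) and all genes tested (grey triangles). Circles fall to -0.74 in a LOUCY library and -0.49 in a TALL-1 library while the squares stay near 0, and in ALL-SIL circles and squares move together.

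Per kilobase of merged exon, which allows levels of different genes to be compared, TOP2A was the most abundant of the 53 in Jurkat controls (209 CPM per kb) and in KARPAS-45 (241). TPX2 led in both arms labelled HPB-ALL (155 and 185 CPM per kb), and CKS2 in HPB-ALL (180), LOUCY (178) and TALL-1 (158). UBE2C led in DND-41 (132 CPM per kb) and CDC25B in ALL-SIL (149). Median levels over the 53 genes ran from 15.2 CPM per kb in the controls labelled HPB-ALL to 43.9 in KARPAS-45. CDC25C was the third lowest in every polyadenylated group, at 1.54 to 10.9 CPM per kb, above only PRC1 and NUSAP1.

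Some levels are uncertain where gene models overlap. PRC1, which bundles microtubules at the central spindle, shared 57.6% of its merged exon bases with the same-strand gene model AC068831.7. That model stood at 9.86 CPM in the lines. NUSAP1 shared 62.2% with AC087721.2, which stood at 0.0 CPM in each table. PRC1 and NUSAP1 at under 1 CPM in the lines are therefore not read as levels, and the cause was not tested. Smaller overlaps with expressed opposite-strand genes were those of FOXM1 with ITFG2 (15.9%), CDCA3 with GNB3 (9.7%), CCNA2 with EXOSC9 (9.1%) and CDC25C with FAM53C (8.8%), and CENPA shared 7.0% with SLC35F6 on its own strand. No source used here says if counting was by strand. Near-identical copies were low: UBE2CP5 stood at 2.85 CPM beside 26.8 for UBE2C in the libraries labelled HPB-ALL, and CDC20P1 at 2.25 CPM beside 119 for CDC20 in Jurkat.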

How the data were processed

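RNA was sequenced from 40 libraries of cell lines in 10 groups of 4, deposited as 3 tables of raw gene counts. Per the submitters' processing notes the tools include Trimmomatic 0.39 and STAR 2.7.11b with the GRCh38 build; for the counter, strand and annotation, nothing was given in the sources at hand. The values deposited by the authors are whole counts per gene, unfiltered and not normalized. Rows naming no gene held 12.98 to 15.12% of counts in the libraries labelled HPB-ALL and were left out of library sizes. Columns were matched to samples by name, and 2 LOUCY columns carry no number. The Jurkat control columns are named shNTC while their sample titles say NTC-siRNA, and the titles were followed.

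Each table was filtered with filterByExpr, scaled by TMM and tested with edgeR's quasi-likelihood F test (edgeR 4.0.16, R 4.3.3), with Benjamini-Hochberg adjustment over all genes tested and a threshold of 0.05. Levels are CPM within a table; a table is scaled on its own, so levels across tables are only set side by side. SE is the log2 fold change over the square root of F. Genes not listed in a role are named only as the 2 called genes with the smallest p per list, QKI and the label check genes; in Jurkat the 8 genes with the smallest p are named, and among the lines the widest and narrowest of each role, plus genes singled out after their values were seen. The main fits paired no libraries, in Jurkat too, and all SEs, intervals and p-values come from them unless a block or pairing is named. Numbers were taken to pair libraries where every correlation of same-numbered deviations from group means exceeded 0.1. This held in Jurkat (0.574 to 0.741) and not in the libraries labelled HPB-ALL or the lines. Alternatives were DESeq2 1.42.0 with its size factors, its scaling within edgeR, no filter on low counts, a replicate block, totals without histone and mitochondrial genes, and leaving out each library; leaving out both low libraries was chosen after seeing the data. Fits were tested on simulated data. With 44.1 M counts or more per library, a gene without a count is below 0.068 CPM (3 counts), which covers counting error only. The genes and lists were chosen with earlier results of these data known. Promoters come from RefSeq.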

Additional observations from a re-analysis of the deposited data

Results flagged for a closer look

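A library was looked at again where it lay far from the other 3 of its group for the summed level or a gene (its gap to the nearest of them over Dixon's 95% critical share of the group's range). Of 238 groups of 4 examined, 21 (8.82%) had such a library; chance gives about 1 in 20.

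In LOUCY, library 4 had the lowest summed level, 3645 CPM, and lay apart for AURKA (38.9 CPM), BIRC5 (67.8), SPC25 (21.2), CENPF (159), HMMR (13.5), ANLN (37.5), GTSE1 (94.1) and FOXM1 (205). In TALL-1, library 4 lay apart for CENPF (188 CPM) and PRC1 (0.272). Untreated HPB-ALL library 4 lay apart for HMMR, at 55.3 CPM, the highest of its 4. Among QKI-shRNA libraries labelled HPB-ALL, library 4 was low for the CDK-binding protein CKS2 (18.1 CPM), NEK2 (44.3), TTK (43.2), SPC24 (15.9) and KIF20A (49.2), and high for NUF2 (52.3) and TOP2A (644). Library 3 was low for AURKB (33.2 CPM) and library 2 for CDCA8 (74.2).

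With replicate numbers as a block, the knockdown effect in the libraries labelled HPB-ALL exceeded that in Jurkat for 8 genes by edgeR's test of the difference, by these log2 amounts: CDC25B 0.33, HJURP 0.43, KIF11 0.32, KIF23 0.36, ANLN 0.37, CDCA5 0.45, FOXM1 0.37 and CDCA3 0.39. Without the block none passed.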

How the results depend on the processing

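No gene was called in Jurkat under any alternative run, and leaving out libraries moved the median there between 0.02 and 0.10. In the libraries labelled HPB-ALL, leaving out each library gave 23 to 26 genes higher, 2 to 3 lower and a median of 0.12 to 0.16. Over all 18128 to 18252 genes, those runs gave 1773 to 2152 higher and 1350 to 1728 lower. No filter on low counts gave 1 lower (1813 of all 33043 genes) and a median of 0.16. PTTG1 lost its call under RLE scaling and without any library but control 4, CCNB2 without controls 3 and 4 or any QKI-shRNA library, MAD2L1 without controls 1 and 2 or QKI-shRNA 1, 2 and 4, KIF2C without controls 3 and 4 or QKI-shRNA 3 and 4, MKI67 without controls 2 and 4 or QKI-shRNA 3 and 4, and CDK1 without control 3 or QKI-shRNA 4, each library being left out alone. Calls were gained too: BIRC5 and CENPA unfiltered (where MAD2L1 and HMMR were lost), BIRC5 without control 2, CENPA without QKI-shRNA 2, and NEK2 and KIF20B without QKI-shRNA 4. Genes near 0 changed sign: AURKB and CDCA8 stood at 0.01 unfiltered, and leaving out single libraries gave AURKB -0.04 to 0.06, CDCA8 -0.04 to 0.09, PLK1 -0.01 to 0.02, BUB3 0.00 to 0.07 and TTK -0.05 to 0.00. In Jurkat, CCNA2 ran from -0.08 (without QKI-siRNA library 2) to 0.38 (without control library 2). The cause was not tested.

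With the replicate block, the libraries labelled HPB-ALL gave 23 higher and 1 lower, against 1710 and 1353 of all 17974 genes. There, CCNB2, CDC25C, CKS1B, MAD2L1, PTTG1 and KIF2C were not called. Replicate numbers do not pair the libraries labelled HPB-ALL. With the block, the difference between knockdowns gave 8 higher (1.25% of all genes). DESeq2 gave 2 higher for that difference. In the lines, same-numbered libraries correlated above 0.1 in 24 of 50 pairs, so the numbers do not pair them either; the block, which leaves out the 2 LOUCY libraries without a number, gave LOUCY 1 higher, DND-41 5 higher, TALL-1 against LOUCY 1 lower and LOUCY against DND-41 3 higher. RLE scaling and DESeq2 each gave 4 lower for TALL-1 against LOUCY. Shares over all genes were not counted for DESeq2's test of the difference or for these alternatives in the lines.

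Without both low libraries, chosen after seeing the data, counts are given with the share of all genes. KARPAS-45 had 9 lower (33.6%), LOUCY 18 higher (36.4%) and 9 lower (27.9%) and TALL-1 33 higher (31.3%). KARPAS-45 against TALL-1 had 10 lower (34.5%), TALL-1 against LOUCY 5 lower (32.9%) and LOUCY against DND-41 32 higher (33.1%). DND-41 against ALL-SIL had 19 higher (28.2%), and ALL-SIL against HPB-ALL 13 higher (28.6%) and 18 lower (35.4%). Leaving out single libraries gave ranges of 3 to 17 higher and 8 to 15 lower for LOUCY, 0 to 1 lower for TALL-1, 16 to 27 lower for DND-41, 3 to 6 higher for HPB-ALL, 2 to 7 lower for TALL-1 against LOUCY, 7 to 26 higher for LOUCY against DND-41, and 7 to 17 higher and 3 to 8 lower for DND-41 against ALL-SIL. The upper ends for LOUCY (17), LOUCY against DND-41 (26) and DND-41 against ALL-SIL (17) came without LOUCY library 4, which also gave LOUCY 8 lower and TALL-1 against LOUCY 7 lower. DND-41 library 1 gave its 16, untreated HPB-ALL library 1 its 3. Shares over all genes were not counted for these runs without single libraries. With histone and mitochondrial genes taken out, the summed level was 12683 CPM in KARPAS-45 and 5225 CPM with QKI shRNA. Depth sets a floor of at most 0.068 CPM (3 counts), and the spread between Jurkat libraries limits small changes there.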
